A study of Homo sapiens with 9 samples.

Results

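The progress of the response to a synthetic miR-16 was followed within the miR-16 arm of a transfection time course in MP41 cells, a human uveal melanoma line with a mutated GNA11. For each gene, the mean of its 6 and 12 h values (early) was subtracted from the mean of its 24 and 48 h values (late). The comparison used the 4 miR-16 libraries among the 9 of the series, 2 early and 2 late, and all 14839 genes of the deposited table. The mimic was given once, at 66 nM with a lipid reagent, and cells were not treated again. The 4 miR-CTR libraries of the same hours, in which cells received a control mimic at the same dose, and the library made before transfection (0 h) are given beside the miR-16 values. The polyA RNA of each condition was sequenced in 1 library, so no replicate and no p-value exists and hours are not replicates of a window. Within the arm, time in contact with miR-16 and time in culture cannot be told apart. The table numbers its time points and does not name hours, and these numbers were read in order as 0, 6, 12, 24 and 48 h. All cells were 1 line, and fewer cells in a cycle phase cannot be told apart from less RNA per cell.

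The label of the line was checked against pigment cell genes. The transcription factors MITF and SOX10 and the melanosome genes PMEL, MLANA, TYR, TYRP1 and DCT lay between 12.29 and 17.88 (normalized log2 value) in all 9 libraries. Of 23 genes listed for other cell types, 5 were in the table, and they held 0.00344% to 0.00346% of the early and 0.00442% to 0.0049% of the late miR-16 values. Libraries held 20270000 to 27360000 reads. The share of values from mitochondrial genes was 3.59% and 3.45% early and 4.21% and 4.73% late with miR-16, and 3.32%, 3.85%, 4.12% and 4.41% in the miR-CTR libraries in order of hours. Its part in the differences below was not tested.

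A microRNA guides Argonaute proteins to messenger RNAs that pair with its seed, the bases near its 5′ end, and the bound messages are translated less and decay sooner. miR-16 belongs to the miR-15/16 family, which is known for targets that drive cells from G1 into S phase, among them cyclins D and E, CDK6, CDC25A, CHEK1 and WEE1. When cyclin-CDK activity is low, the RB family stays bound to E2F factors and genes for DNA replication are transcribed less. Mitotic genes are silenced in such cells by the DREAM complex, which contacts promoters through a short element called CHR.

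The mature miR-16 is shown first because every site below is a match to it. It is the same at its locus on chromosome 13 (MIR16-1, chr13:50049027-50049048, minus strand) and on chromosome 3 (MIR16-2, chr3:160404754-160404775, plus strand; RefSeq, GRCh38.p14). The seed, bases 2 to 8, is in capitals.
miR-16: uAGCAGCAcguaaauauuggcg

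Seed matches are shown for 7 genes with an 8mer that had large negative differences and a mean value above the lowest 25% of genes. They are also shown for 5 known targets that differ in their course. They were read from the longest annotated 3′UTR (GENCODE 29, GRCh38). Capitals mark the match, an 8mer (bases 2 to 8 of miR-16 with an A opposite base 1) or a 7mer-m8 (bases 2 to 8 alone). All lie in exonic 3′UTR sequence, and each is a run of letters and not a measured binding site. Each gene is shown with 1 match, and CDC25A, RAPH1, NUP50, MYB and WEE1 had further matches that are not printed.
KCNK5 (8mer, chr6:39189640-39189647, minus strand): ggcagaactTGCTGCTActagagttc
CDC25A (8mer, chr3:48158264-48158271, minus strand): tactggggcTGCTGCTAtttaagcca
RAPH1 (8mer, chr2:203435979-203435986, minus strand): agttttattTGCTGCTAttctgggag
NUP50 (8mer, chr22:45186713-45186720, plus strand): gcaaattttTGCTGCTAagactatca
CHEK1 (8mer, chr11:125655358-125655365, plus strand): tgaatatagTGCTGCTAtgttgacat
WBP11 (8mer, chr12:14786850-14786857, minus strand): ttgaagcagTGCTGCTAacatccatt
ANP32E (8mer, chr1:150219114-150219121, minus strand): gtatagtacTGCTGCTActgcttcta
MYB (8mer, chr6:135218634-135218641, plus strand): aacgtttttTGCTGCTAtggtcttag
WEE1 (8mer, chr11:9589146-9589153, plus strand): ttgtgaattTGCTGCTAttttagttt
CCND1 (8mer, chr11:69653315-69653322, plus strand): cacattgttTGCTGCTAttggaggat
CCND3 (7mer-m8, chr6:41935320-41935326, minus strand): tgacagcttTGCTGCTgaaggctca
AMOT (7mer-m8, chrX:112775604-112775610, minus strand): tccttttaaTGCTGCTtttgagctt

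Genes of DNA replication and mitosis were lower late than early with miR-16, and most of those listed passed the size used here. A gene was called higher or lower when its late minus early difference passed 0.5 on the log2 scale. The study used the same size for another contrast, miR-16 against miR-CTR. With miR-16, 1679 of 14839 genes were called higher (11.3%) and 1262 lower (8.5%). In the miR-CTR arm the same subtraction called 1247 genes higher (8.4%) and 900 lower (6.07%). The median gene differed by -0.005 in either arm. Both late libraries lay beyond both early ones for 1592 of the higher genes (10.7% of all genes) and 1190 of the lower ones (8.02%).

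Many of these differences were shared with the control culture. Of the 1262 genes lower with miR-16, 450 were also lower with miR-CTR (35.7% of the miR-16 list and 50% of the miR-CTR list), and 1183 (93.7%) had the same sign there. Their median was -0.66 with miR-16 and -0.42 with miR-CTR, and 275 of them were further down with miR-16 by more than 0.5. For the 1679 higher genes, 844 were higher in both arms (50.3% and 67.7%), and the medians were 0.72 and 0.51. Over all genes, the late minus early differences of the 2 arms had a Pearson correlation of 0.71, a description over genes whose arms share no library but share the normalization. The order 6, 12, 24 and 48 h was kept without a break by 876 of the lower (69.4%) and 1033 of the higher genes (61.5%). These genes were called on the same values, which favours such an order, and its share among all genes was not computed. The shares therefore do not show whether the course was steadier than the selection alone would give.

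The counting error set how far single genes could be read. The counting standard error of a difference, from the reads behind its 4 values, had a median of 0.0624 over all genes, 0.222 in the 25% of genes with the lowest mean value and 0.0288 in the highest 25%. The lowest 25% held 870 of the higher genes (51.8%) and 430 of the lower ones (34.1%). The 48 h library carried most of the size. Without it 1134 genes were higher and 646 lower, and without the 24 h library 2475 were higher and 2065 lower.

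**Figure D1:**
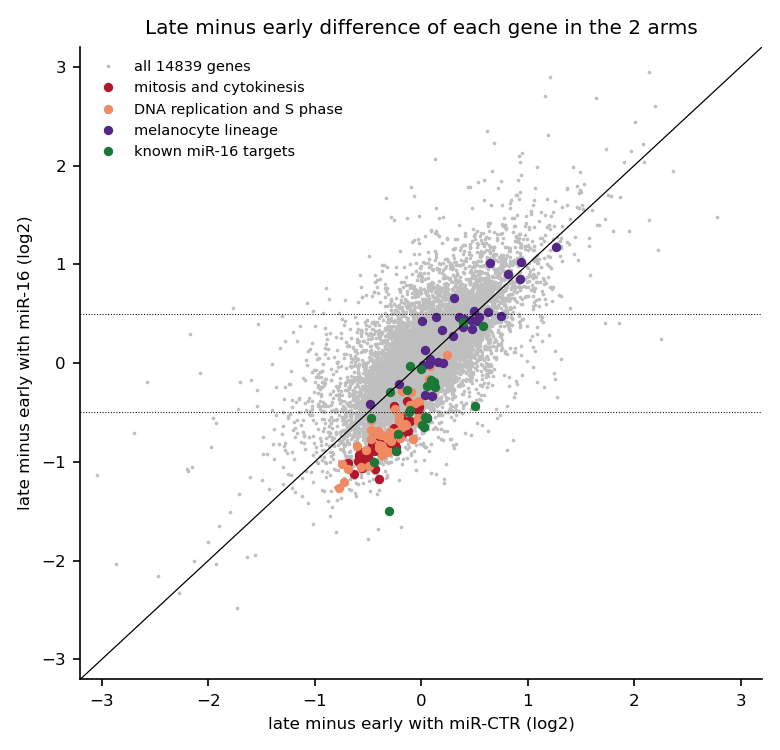
Late minus early difference of each gene with miR-CTR (x axis) against that with miR-16 (y axis), both log2. Each point is a gene, colored points are members of 4 lists, the solid line marks equal differences and the dotted lines mark 0.5 and -0.5. All 49 mitosis genes and all 45 replication genes lie under the line, while the melanocyte genes lie along it.

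The regulators of the G1 to S transition were split. Of 26 measured cyclins, CDKs, E2F factors and inhibitors, 10 were lower late and 4 higher with miR-16, against 5 and 3 with miR-CTR (medians -0.39 and -0.21). The shares with miR-16 were 38.5% and 15.4%, beside 8.5% and 11.3% of all genes. With miR-CTR 6.07% of all genes were lower and 8.4% higher. Without the 48 h library 8 of the list were lower and 2 higher with miR-16. CCNE2, the cyclin E2 that brings CDK2 into S phase, read 10.65, 10.15, 9.49 and 8.61 at 6, 12, 24 and 48 h. Both late values were below both early ones, and the difference was -1.35 ± 0.054 (here and below ± gives the counting standard error with 1 library per hour). It was -0.62 with miR-CTR, where CCNE2 read 10.83, 10.36, 10.24 and 9.72.

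The atypical repressors E2F8 and E2F7, which are themselves E2F target genes, were also lower. E2F8 read 8.89, 8.24, 7.91 and 6.49 (difference -1.37 ± 0.106; miR-CTR -0.75), and its lowest value was that of 48 h. E2F7 differed by -1.09 (miR-CTR -0.53). CDKN2C, an inhibitor of CDK4 and CDK6, differed by -1.12 (miR-CTR -0.45). RBL1 (p107), which represses E2F genes, differed by -0.96 and its relative RBL2 (p130) by 0.76, with -0.53 and 0.89 in the control arm.

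The cyclins D did not move together. CCND3 read 9.68, 9.28, 8.91 and 8.26 (difference -0.9 ± 0.066; miR-CTR -0.24), so that each hour was below the one before it. CCND1 read 12.92, 13.26, 13.27 and 13.65, and its difference of 0.37 ± 0.015 was below the size used here. In the control arm it was 0.58, with 13.33, 13.69, 13.87 and 14.31. CCND1 was thus below its miR-CTR value at every hour while its level was higher late than early in either arm. CDK6 was lower by a like size in both arms (-0.56 with miR-16 and -0.48 with miR-CTR), and CCNE1 differed by -0.29 in both.

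Replication genes showed the difference as a group. Of 45 listed genes for origin licensing, DNA synthesis and nucleotide supply, 36 were lower late with miR-16 (80%, beside 8.5% of all genes) and none was higher. Their median was -0.73, against -0.32 with miR-CTR, where 7 were lower, beside 6.07% of all genes. All 45 had a lower difference with miR-16 than with miR-CTR, with a median gap of -0.42. In 8 of them the gap passed 0.5, as it did downward in 3.62% of all genes. RRM2, the ribonucleotide reductase subunit that limits nucleotide supply, read 13.03, 12.61, 12.1 and 11.01 (difference -1.27 ± 0.023; miR-CTR -0.77). CLSPN, the checkpoint adaptor claspin, read 10.47, 10.14, 9.69 and 8.51 (-1.21 ± 0.055; miR-CTR -0.73). In both genes the step to 48 h was the deepest of the course, and it also spanned the most hours.

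CDC6, which loads the replicative helicase at origins, differed by -1.06 and UHRF1, which maintains DNA methylation, by -1.08 (miR-CTR -0.57 and -0.69). The 6 helicase subunits MCM2 to MCM7 had differences between -0.73 and -0.54, and PCNA, the sliding clamp, had -0.72. POLD1 and LIG1 were exceptions at -0.03 and 0.09. Without the 48 h library, 13 of the 45 genes were lower and the median was -0.43. Without the 6 h library these values were 24 and -0.52.

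Mitotic genes were lower to a similar degree. Of 49 measured genes for mitotic entry, spindle, kinetochore and cytokinesis, 44 were lower late with miR-16 (89.8%, beside 8.5% of all genes). With miR-CTR 8 were lower, beside 6.07% of all genes, and the medians were -0.81 and -0.35. In all 49 both late values were below both early ones with miR-16 (30.5% of all genes were), and in 41 with miR-CTR (also 30.5% of all genes). ANLN, the contractile ring scaffold anillin, read 12.36, 11.83, 11.27 and 10.58 (difference -1.17 ± 0.029). In the control arm ANLN read 12.65, 12.4, 12.18 and 12.08, a difference of -0.4. The arms were thus farther apart at 48 h than at 6 h.

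PLK1, a kinase of mitotic entry, read 11.99, 11.41, 10.9 and 10.26 with miR-16 and 11.94, 11.52, 11.14 and 11.05 with miR-CTR. Its differences were -1.12 ± 0.032 and -0.64. PKMYT1, which inhibits CDK1, and CDCA8, a subunit of the chromosomal passenger complex, differed by -1.08 and -1.07 (miR-CTR -0.44 and -0.56). The difference that came closest to 0 in the list was -0.39. Without the 48 h library 25 of the 49 were lower, with a median of -0.52.

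**Figure D2:**
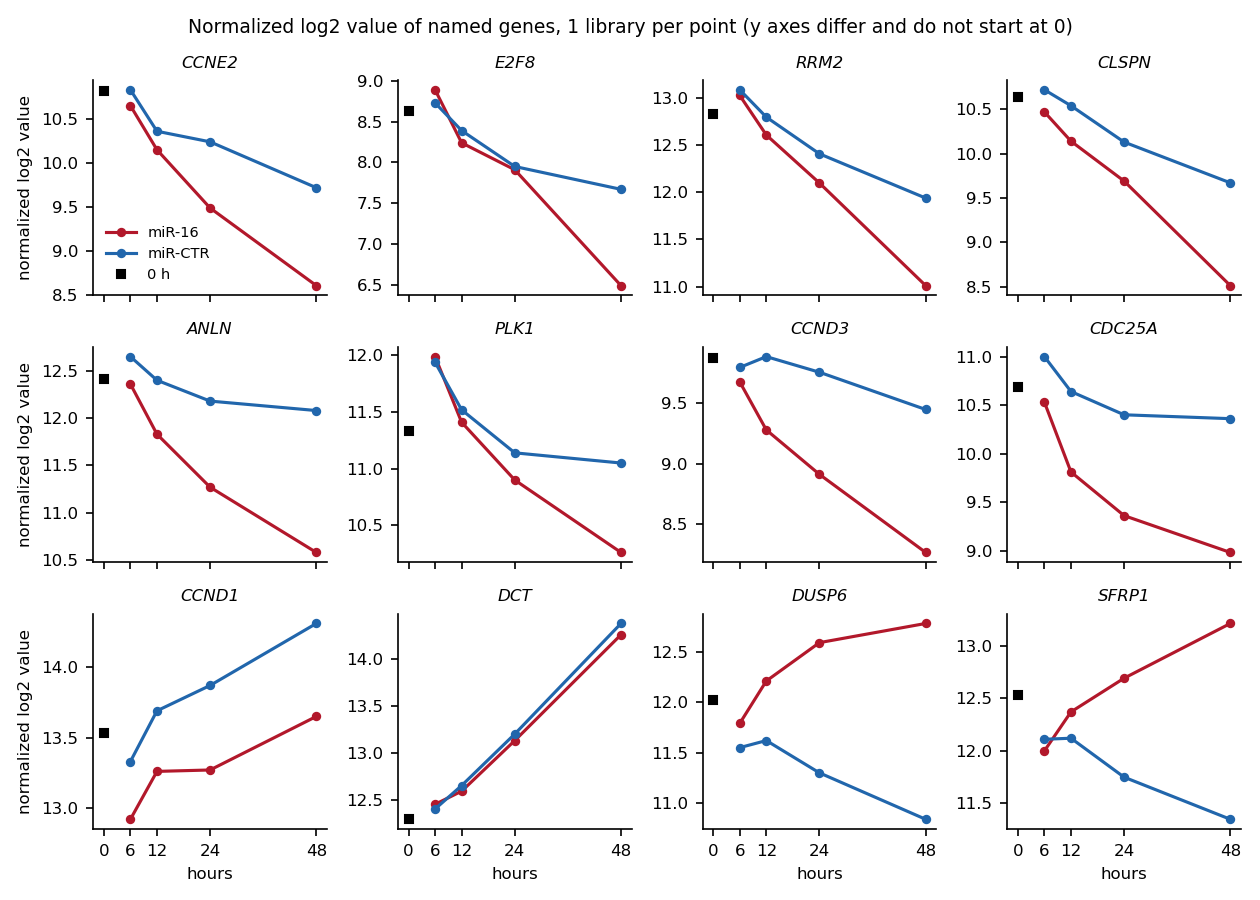
Normalized log2 value (y axes, each with its own range) of 12 genes against hours after transfection, in miR-16 (red) and miR-CTR (blue) libraries, with the 0 h library as a black square and 1 library per point. CCNE2, E2F8, RRM2, CLSPN and PLK1 part between the arms mainly after 12 h, and ANLN, CCND3 and CDC25A are already apart at 12 h. DCT runs alike in both arms, and DUSP6 and SFRP1 run in opposite directions.

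The steps between hours located the parting of the arms. In the replication list, the median step with miR-16 was -0.39 from 6 to 12 h, -0.23 from 12 to 24 h and -0.59 from 24 to 48 h. With miR-CTR it was -0.3, -0.16 and -0.05. For mitotic genes the steps were -0.31, -0.36 and -0.57 with miR-16 and -0.26, -0.18 and -0.07 with miR-CTR. Between 6 and 12 h the arms therefore moved by similar amounts, and they parted most between 24 and 48 h. The intervals lengthen over the course, and steps were not divided by their hours. Against 0 h, the replication median stood at -1.07 and the mitotic median at -0.97 at 48 h with miR-16, and both stood at -0.26 with miR-CTR.

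**Figure D3:**
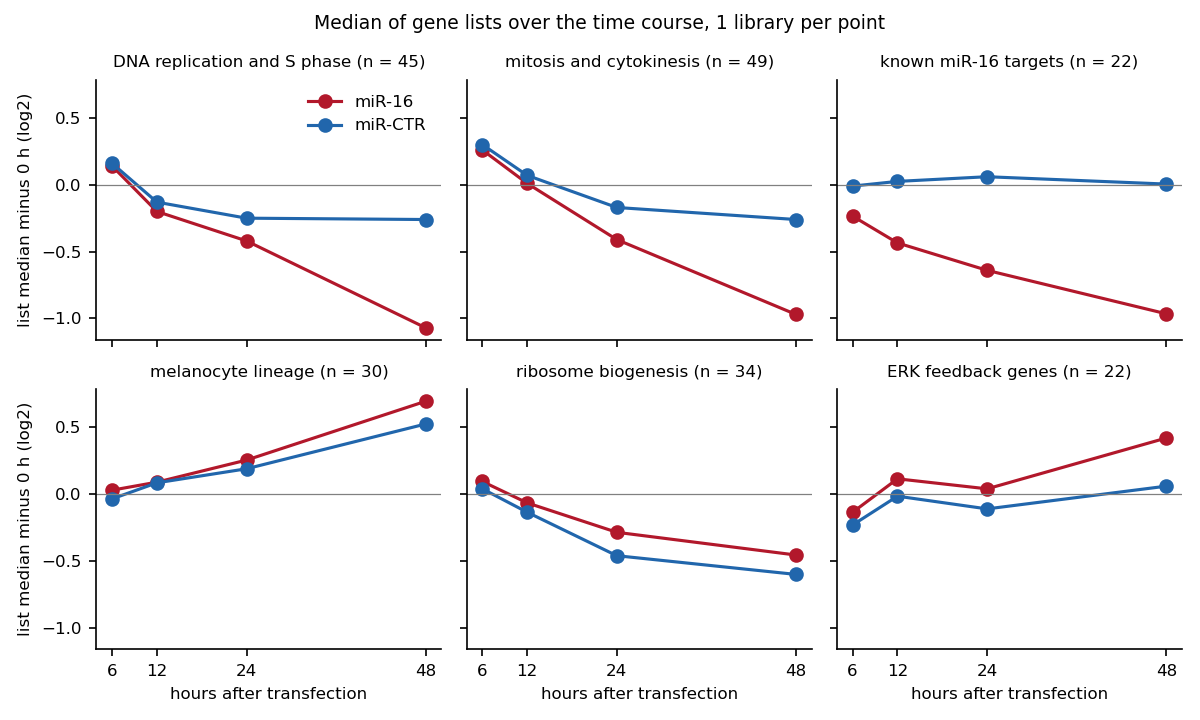
Median over the genes of 6 lists, relative to the 0 h library (y axis, log2), against hours after transfection with miR-16 (red) or miR-CTR (blue), 1 library per point. Replication and mitotic genes reach -1.07 and -0.97 at 48 h with miR-16 and -0.26 with miR-CTR, whereas the melanocyte and ribosome biogenesis lists run side by side.

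The promoters of these lists held different elements. RefSeq promoter sequences (GRCh38.p14, 250 bases before to 50 bases after the start) were at hand for 29 replication genes and 33 mitotic genes. An E2F element, any of TTTGGCGC, TTTGCCGC, TTTCGCGC and TTTCCCGC on either strand, was found in 17 of the 29 replication promoters (58.6%), in 2 of the 33 mitotic ones (6.06%) and in 3.18% of all 22114 promoters. The CHR element TTTGAA, on either strand, was found in 27 of the 33 mitotic promoters (81.8%), in 1 of the 29 replication promoters (3.45%) and in 16% of all promoters. Of the 6755 promoters of measured genes, 5.63% and 9.19% held them. A match is a run of letters and not a measured binding site. Stretches are shown for members with large differences, with 1 match of the element in capitals as it reads along the gene's strand. In ANLN another CHR match follows directly after the capitals and is not marked.
CLSPN (E2F, chr1:35769976-35769983, minus strand): ctggctggGCGGGAAAgcaagaac
CDC6 (E2F, chr17:40287886-40287893, plus strand): cattcggaTTTGGCGCgagcgcgg
GINS3 (E2F, chr16:58392466-58392473, plus strand): ccccgggcGCGGGAAAcgagtttc
ANLN (CHR, chr7:36389836-36389841, plus strand): cgctgaaaTTCAAAtttgaacg
PLK1 (CHR, chr16:23678860-23678865, plus strand): gcgccgcgTTTGAAttcgggga
CDCA8 (CHR, chr1:37692493-37692498, plus strand): ctgtggagTTTGAAttgggtgg
The marked E2F matches of CLSPN and GINS3 began 5 bases before the start, and the marked CHR matches of ANLN, PLK1 and CDCA8 began 26, 29 and 23 bases before it.

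Known miR-16 targets had a negative median with miR-16 and a median near 0 with miR-CTR. Of 22 measured, 9 were lower (40.9%, beside 8.5% of all genes) and none was higher. In 16 both late values lay below both early ones, as in 30.5% of all genes. Without the 6 h library 5 were lower, and without the 48 h library 6. The medians were -0.45 with miR-16 and 0.003 with miR-CTR, where 2 were higher and none lower (beside 8.4% and 6.07% of all genes). Some of these genes, among them AMOT, TACC1, NRBP1 and DNAJB4, were chosen by the study with these libraries in view, so the count is not independent evidence of a direction. The list's steps were -0.14, -0.3 and -0.17 with miR-16, and its median relative to 0 h was -0.24 at 6 h and -0.97 at 48 h.

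CDC25A, the phosphatase that activates CDK2, read 10.53, 9.81, 9.36 and 8.98, a difference of -1 ± 0.053. In the control arm it read 11, 10.64, 10.4 and 10.36 (-0.44). Its deepest step came between 6 and 12 h, unlike the replication genes. The checkpoint kinases CHEK1 and WEE1 differed by -0.72 and -0.56. WEE1 showed no such difference in the control arm (0.05), where it lay between 9.89 and 10.04 at all hours. MYB, a transcription factor, differed by -1.5 ± 0.273 (miR-CTR -0.31), but it was a weak gene at 3.53 to 5.98 and had -0.63 without the 48 h library.

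Several targets outside the cell cycle had a flat course with miR-CTR. AMOT, the angiomotin that binds YAP, read 10.72, 10.32, 10.01 and 9.73 with miR-16 and 11.11, 11.1, 11.26 and 11 with miR-CTR. Its differences were -0.65 ± 0.044 and 0.03. TACC1 and NRBP1 differed by -0.63 and -0.55 (miR-CTR 0.01 and 0.04). ARL2, a small GTPase, read 8.89, 8.34, 8.2 and 8.17 with miR-16 and 9.16, 9.28, 9.5 and 9.95 with miR-CTR. Its difference of -0.43 did not pass 0.5, while the control arm had 0.51.

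Other members stayed within 0.5. BCL2, which blocks apoptosis, differed by -0.27, MAP2K1 by -0.24, VEGFA by -0.24 and BMI1 by -0.2. SMURF1 and HMGA1 differed by -0.07 and -0.03. FGFR1 stood at -0.5 and DNAJB4 at -0.48, just inside the threshold. DNAJB4 was already low at 6 h, with 9.33 against 10.45 at 0 h and 10.03 with miR-CTR.

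Genes with a seed match in their 3′UTR were shifted as a class by a small amount. The longest annotated 3′UTR was read for 12019 genes. The 602 genes with an 8mer had a median late minus early difference of -0.085 with miR-16 (95% binomial interval of the median over genes, -0.125 to -0.06) and 0.025 with miR-CTR. Genes of the same libraries are not replicates, so this interval does not cover variation between cultures or libraries. The 2480 genes with a 7mer-m8 at most had -0.025 and 0.015, the 441 with a 7mer-A1 (bases 2 to 7 with the A) had -0.035 and -0.005, and the 8496 without these had 0 and -0.015. The share of 8mer genes with a negative difference was 60.5% with miR-16 and 47.3% with miR-CTR. Both late values lay below both early ones for 40.4% of them with miR-16 and 27.9% with miR-CTR.

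Within the miR-16 arm, the share called lower did not set the class apart. Of the 8mer genes, 7.64% were called lower, beside 7.95% of all genes with a 3′UTR. Fewer were called higher, 4.98% beside 10.7%. With miR-CTR 2.66% of the 8mer genes were lower and 6.15% higher, beside 5.09% and 7.99% of all genes with a 3′UTR. The class was thus called lower less often than these genes in the control arm and about as often with miR-16. The median step of the 8mer class was -0.05 from 6 to 12 h, -0.06 from 12 to 24 h and 0 from 24 to 48 h. It was thus flat in the last and longest interval, where the replication and mitotic lists had their largest steps. Relative to miR-CTR, the 8mer median was -0.07 early and -0.165 late.

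**Figure D4:**
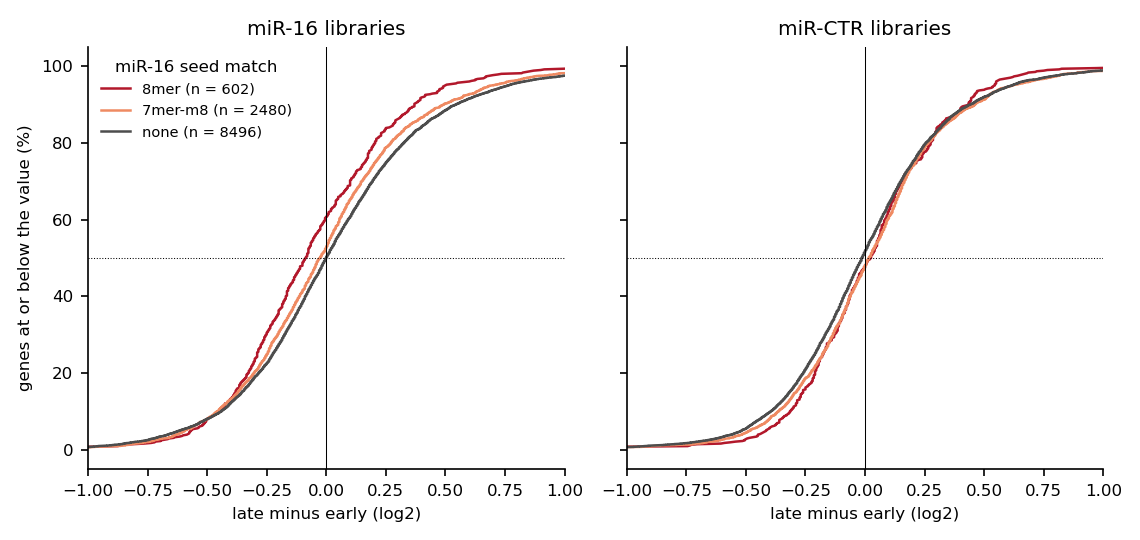
Cumulative share of genes (y axis, percent) by late minus early difference (x axis, log2) for genes with an 8mer, a 7mer-m8 or no match to the miR-16 seed in the 3′UTR, in miR-16 (left) and miR-CTR libraries (right). The 8mer curve crosses 50% at -0.085 with miR-16 and at 0.025 with miR-CTR. The curves meet near -0.5 in the left panel, while in the right panel the 8mer curve is lower there.

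Above the lowest 25% of mean value, the 8 genes with an 8mer and the largest negative differences differed by -1.01 to -0.7, and their sites are printed above except that of MYBL1. MYB, lower at -1.5, fell under that limit. KCNK5, a potassium channel, read 8.31, 7.9, 7.5 and 6.69 (-1.01 ± 0.11). It was also lower with miR-CTR (-0.71). RAPH1, an actin regulator of cell protrusions, differed by -0.88 (miR-CTR -0.37) and MYBL1, a relative of MYB, by -0.87 (miR-CTR -0.3). NUP50, a nuclear pore protein, WBP11, a splicing factor, and ANP32E, a chaperone of the histone H2A.Z, differed by -0.77, -0.72 and -0.7, with -0.39, -0.36 and -0.32 in the control arm. All of these were lower with miR-16 than with miR-CTR, by 0.3 to 0.57, in a group that was picked for its low values with miR-16.

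Genes that the study linked to miR-16 by pull-down were chosen partly on these libraries, so their directions are given as a description. Of 326 measured genes in the window of targets, 137 were lower late (42%, beside 8.5% of all genes) and 6 higher (median -0.42; miR-CTR 0.008). Of 401 measured genes in the window of candidate sponges, 148 were higher (36.9%, beside 11.3% of all genes) and 18 lower (0.33; miR-CTR -0.17). The stricter sponge window had 57 genes, 15 higher (26.3%) and 1 lower (0.12; miR-CTR -0.28).

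Pigment cell genes had positive medians in both arms. Of 30 measured melanocyte lineage genes, 8 were higher with miR-16 (26.7%, beside 11.3% of all genes), 9 with miR-CTR (beside 8.4% of all genes) and none lower in either. The medians were 0.43 and 0.33. DCT, a melanin synthesis enzyme, read 12.45, 12.59, 13.13 and 14.26 with miR-16 and 12.4, 12.65, 13.2 and 14.38 with miR-CTR. Its differences of 1.18 ± 0.017 and 1.27 were close, and it had the largest late rise of the list in both arms. TRPM1, a melanocyte cation channel, differed by 1.02 and S100B, a calcium-binding protein, by 0.9 (miR-CTR 0.94 and 0.82).

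SLC24A5, a cation exchanger of melanosomes, differed by 1.01 with miR-16 and 0.65 in the control arm. MITF, the master regulator of the lineage, differed by 0.28 and 0.3, SOX10 by 0.35 and 0.48, TYR by 0.47 and 0.36 and TYRP1 by -0.21 and -0.21. No member of the list differed between the arms by more than 0.5. The median step was largest between 24 and 48 h (0.24 with miR-16 and 0.32 in the control arm). The late minus early median with miR-16 was 0.17 without the 48 h library, with 5 genes higher. Without the 24 h library 17 were higher, and without the 12 h library 13. TBX2, MYO5A and CITED1 had negative values, -0.42, -0.34 and -0.33.

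Ribosome biogenesis genes had negative medians in both arms, -0.39 with miR-16 and -0.47 with miR-CTR. Of 34 genes, 9 were lower with miR-16 (26.5%, beside 8.5% of all genes) and 14 with miR-CTR (beside 6.07%), and none was higher. The 9 became 3 without either the 6 h or the 48 h library, 16 without the 12 h library and 14 without the 24 h library. NOP58, a core protein of box C/D small nucleolar particles, read 12.13, 12.02, 11.56 and 11.22 with miR-16 (-0.69; miR-CTR -0.53). GRWD1 and MRTO4 differed by -0.67 and -0.67 (miR-CTR -0.5 and -0.7). Of 78 structural proteins of the ribosome none passed 0.5, and their medians were 0.16 and 0.11.

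Stress lists had negative medians with both mimics, and a minority of their members passed 0.5. In the list of ATF4 and unfolded protein response genes, 12 of 35 were lower with miR-16 (34.3%, beside 8.5% of all genes). With miR-CTR 8 were lower, beside 6.07% of all genes, and the medians were -0.39 and -0.27. Without the 48 h library 7 were lower with miR-16. HSPA5, the chaperone BiP of the endoplasmic reticulum, read 14.65, 14.99, 13.82 and 13.81 with miR-16 and 14.5, 15.07, 14.12 and 13.64 with miR-CTR. Its early and late values did not overlap in either arm (-1.01 and -0.91). ATF5 and DDIT3, factors of the same response, differed by -1.27 and -0.77 (miR-CTR -1.22 and -0.66). ATF3 differed more between the arms, with -1.2 ± 0.097 and -0.49. Of 28 heat shock and chaperone genes, 6 were lower with miR-16 (21.4%, beside 8.5% of all genes) and 3 with miR-CTR (beside 6.07%). Their medians were -0.31 and -0.25. The 6 became 3 without the 12 h library, 4 without the 48 h library and 10 without the 24 h library. The list was led by HSPA1A at -0.96 (miR-CTR -0.71). HSPA1A and HSPA1B (-0.74) are near-identical copies, so their split of reads is uncertain.

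Targets of YAP and TEAD were mixed. Of 28, 8 were lower (28.6%, beside 8.5% of all genes) and 2 higher (7.14%, beside 11.3%) with miR-16. With miR-CTR 10 were lower and 1 higher, beside 6.07% and 8.4% of all genes. The medians were -0.28 with miR-16 and -0.38 with miR-CTR. For miR-16 without the 6 h library, 3 were lower and 3 higher, with a median of -0.18. Without the 48 h library these counts were 5 and 1, with a median of -0.15. CYR61, a secreted matrix protein and a standard YAP target, read 10.67, 10.13, 9.77 and 8.93 with miR-16 and 10.44, 9.6, 8.78 and 6.95 with miR-CTR. It was lower late in both arms, and less so with miR-16 (-1.05 ± 0.05 and -2.16). CTGF, another YAP target, differed by -0.11 with miR-16 and -2.08 in the control arm. RBMS3 in the same list was higher late by 1.7 and 1.79.

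Genes listed for their link to ERK activity had medians of opposite sign in the arms, 0.27 with miR-16 and -0.06 with miR-CTR. The list was not split by whether ERK raises or lowers a gene, so its counts do not give a direction of ERK activity. Of 22, 6 were higher late with miR-16 (27.3%, beside 11.3% of all genes) and 2 lower (9.09%, beside 8.5%). With miR-CTR these numbers were 3 and 4, beside 8.4% and 6.07% of all genes. In 18 the difference was higher with miR-16, and in 7 by more than 0.5, as in 6.04% of all genes. DUSP6, the phosphatase that inactivates ERK, read 11.79, 12.21, 12.59 and 12.78 with miR-16 and 11.55, 11.62, 11.3 and 10.84 with miR-CTR. Late and early values did not overlap in either arm, and the differences were 0.69 ± 0.021 and -0.52. The Sprouty inhibitors SPRY1 and SPRY4 differed by 0.56 and 0.65 (miR-CTR 0.04 and 0.03).

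BMF, a pro-apoptotic BCL2 relative, read 10.05, 10.43, 10.73 and 11.26 with miR-16 (0.76; miR-CTR 0.22). ETV5 and PHLDA1 were higher late in both arms (0.95 and 0.79 with miR-16, 0.77 and 0.52 with miR-CTR), and FOSL1 was lower in both (-0.78 and -0.84). EGR1 differed by -0.24 and -0.97. Without the 48 h library the list median was 0.08 and 4 genes were higher, without the 6 h library also 4, and without the 12 h library 11.

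The extracellular matrix list was mixed. Of 36 collagens, laminins and integrins, 9 were higher and 2 lower with miR-16, and 2 and 5 with miR-CTR (medians 0.12 and -0.04). The shares with miR-16 were 25% and 5.56%, beside 11.3% and 8.5% of all genes. In the control arm 8.4% of all genes were higher and 6.07% lower. Without the 48 h library 4 of the list were higher with miR-16. Without the 24 h library 12 were higher and 6 lower. LAMA4, a laminin chain, read 9.72, 9.53, 9.96 and 10.95 (0.83 ± 0.047; miR-CTR 0.36). COL4A1, a basement membrane collagen, read 5.41, 5.27, 6 and 6.62 with miR-16 and 5.66, 5.52, 5.43 and 5.42 with miR-CTR (0.97 ± 0.199 and -0.17). COL5A1 differed by 0.84 and -0.42. MMP11, a matrix metalloprotease outside the list, read 8.28, 8.55, 9.5 and 10.28 with miR-16 and 8.53, 8.48, 8.2 and 8.24 with miR-CTR (1.48 ± 0.066 and -0.29).

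**Figure D5:**
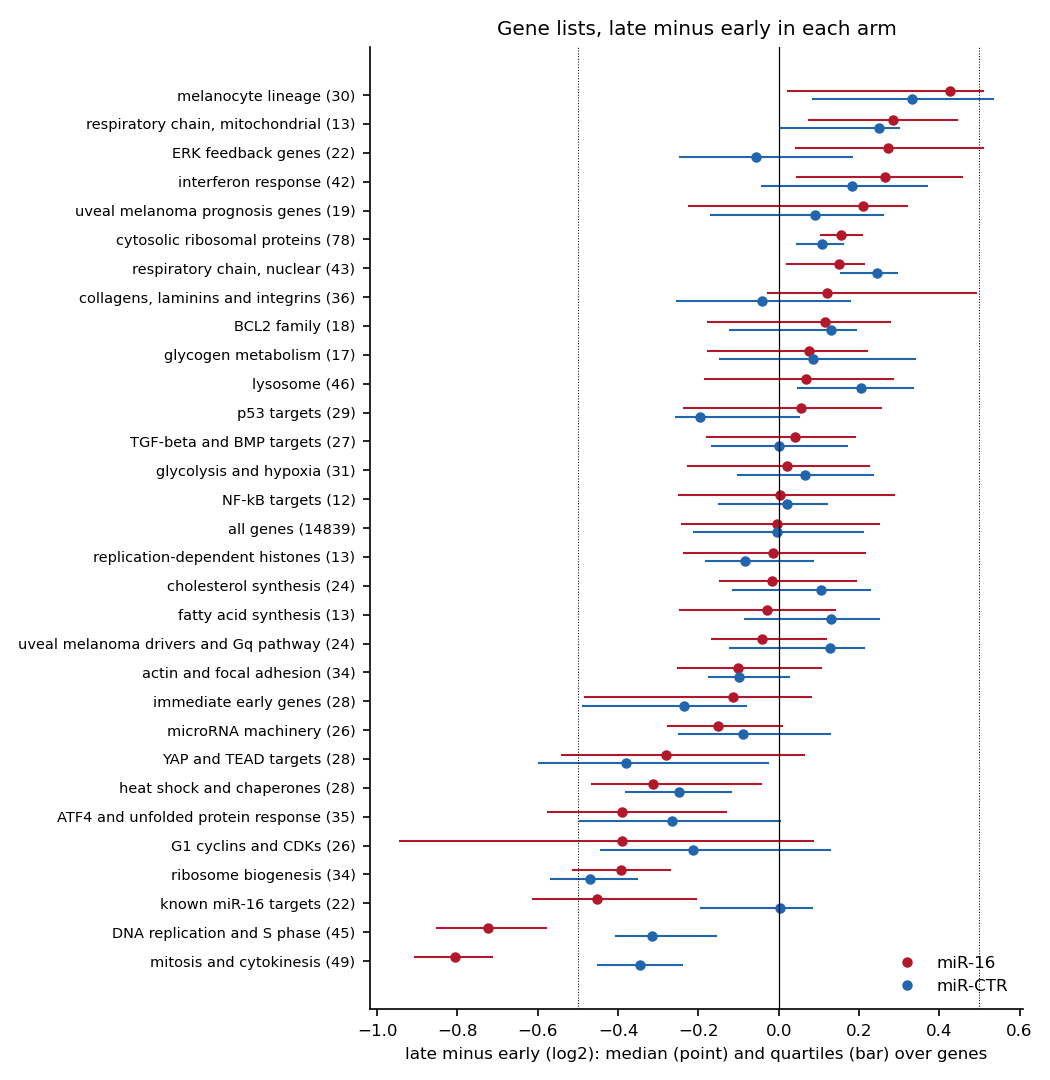
Median (point) and quartiles (bar) over genes of the late minus early difference (x axis, log2) for each gene list with its number of measured genes, with miR-16 (red) and miR-CTR (blue). Replication and mitosis are lowest with miR-16, at -0.73 and -0.81, and the bars of the arms do not overlap there.

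The remaining lists are given by their counts with miR-16 and their medians. Of 42 interferon response genes 9 were higher (21.4%, beside 11.3% of all genes) and 1 lower (median 0.27; miR-CTR 0.18), led by the weakly expressed immunoproteasome gene PSMB9 (1.08 ± 0.225). Without the 48 h library 6 were higher. Of 28 immediate early genes 7 were lower (25%, beside 8.5% of all genes) and 2 higher (-0.12; miR-CTR -0.24), and without the 6 h library 4 were lower. JUN was lower in both arms (-0.87 and -1.09). EGR2, weakly expressed at 5.15 to 6.82 with miR-16, differed by 1.31 ± 0.193 there and by 0.15 with miR-CTR. Of 46 lysosomal genes 7 were higher (15.2%, near the 11.3% of all genes) and 1 lower (0.07; miR-CTR 0.21), with GAA, the lysosomal glucosidase, at 1.1.

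Among 29 p53 targets 3 were higher (10.3%, near the 11.3% of all genes) and 1 lower (3.45%, beside 8.5%). Their median was 0.06 (miR-CTR -0.2), and CDKN1A (p21) stood at 0.02. In the microRNA machinery 3 of 26 were lower (11.5%, near the 8.5% of all genes), with a median of -0.15 (miR-CTR -0.09). These were TARBP2 (-0.67), DGCR8 (-0.58) and AGO2 (-0.57), with -0.38, -0.48 and -0.42 in the control arm. The transcripts that host the 2 miR-16 loci were lower too, DLEU2 by -1.22 ± 0.18 and SMC4, a condensin subunit, by -0.64 (miR-CTR -0.55 and -0.17). Their list had 5 measured genes, with 2 lower and 1 higher, and DLEU2 was weakly expressed at 5.44 to 6.8 with miR-16.

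Counts in the other lists stayed at 3 or fewer in either direction with miR-16, where 11.3% of all genes were higher and 8.5% lower. Of 18 BCL2 family genes 3 were higher and 1 lower. For 17 glycogen genes these numbers were 2 and 1, for 24 cholesterol synthesis genes 1 and 1, for 13 fatty acid synthesis genes 1 and 0, for 31 glycolysis and hypoxia genes 1 and 2, and for 12 NF-kB targets 1 and 1. Of 27 TGF-beta and BMP targets 1 was higher and 1 lower, of 34 actin and focal adhesion genes 2 were lower, and of 13 replication-dependent histones 1 was higher and 2 lower. Of 24 genes of uveal melanoma drivers and the Gq pathway 1 was higher and 1 lower, and GNA11 stood at -0.35 (miR-CTR -0.29). Of 19 prognosis genes of uveal melanoma 1 was higher and 2 lower. None of the 43 nuclear and 13 mitochondrial genes of the respiratory chain passed 0.5, with medians of 0.15 and 0.29 (miR-CTR 0.25 and 0.25). Of the 5 measured genes of other cell types 3 were higher, RLBP1, BEST1 and PDGFRB, with a list median of 0.51 (miR-CTR 0.23).

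The largest differences with miR-16 were mostly present with miR-CTR as well. Among genes above the lowest 25%, CYP1A1, a monooxygenase under the aryl hydrocarbon receptor, read 9.69, 9.29, 7.56 and 7.11 with miR-16 and 9.69, 9.41, 7.81 and 6.34 with miR-CTR. Its differences were -2.16 ± 0.091 and -2.48. LYPD1 (-2.04; miR-CTR -1.93) and the small heat shock protein HSPB7 (-1.51; miR-CTR -1.8) were also alike in the arms. PAG1, an adaptor that recruits the kinase CSK, had -1.42 and -1.06. VDR, the vitamin D receptor, had -1.21 and -1.02.

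H2AFX, the histone variant phosphorylated at DNA breaks, read 11.67, 11.33, 10.58 and 9.87 (-1.28; miR-CTR -0.68). CDCA5 (sororin), which protects sister chromatid cohesion, had -1.25 and -0.77. Both, with E2F8, CCNE2, RRM2 and CLSPN, were further down with miR-16 by 0.48 to 0.74, whereas the other 6 of the 12 largest falls differed between the arms by 0.36 or less.

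Among the largest positive differences, LDB3, a Z-disc protein of muscle, read 6.22, 6.76, 8.04 and 9.24 with miR-16 and 6.32, 6.91, 7.99 and 9.18 with miR-CTR (2.15 ± 0.123 and 1.97). CDK18, NANOS1, FCGR2A, NOX5, STON1, SEMA5A, GNG7 and CLIP2 were higher late in both arms, by 1.42 to 1.67 with miR-16 and 0.85 to 1.26 in the control arm. All 8 had a larger difference with miR-16, NANOS1 by 0.75 and GNG7 by 0.34. RN7SL2, a 7SL RNA gene without a polyA tail of its own, read 7.23, 6.07, 10.15 and 7.28, so its 2.07 came from the 24 h library and was 0.63 without it. MMP11 was the one of the 12 largest whose miR-CTR difference was negative.

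Genes that moved in opposite directions were few. Both late values lay above both early ones with miR-16 and below them with miR-CTR in 233 genes (1.57%), and the reverse held in 242 (1.63%). With a size past 0.5 in both arms and a mean value above the lowest 25%, 2 genes remained, SFRP1 and DUSP6. SFRP1, a secreted WNT antagonist, read 12, 12.37, 12.69 and 13.21 with miR-16 and 12.11, 12.12, 11.75 and 11.35 with miR-CTR, differences of 0.77 ± 0.019 and -0.57. At 6 h the arms differed little in SFRP1, and at 48 h they stood on either side of the 0 h value of 12.53.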

How the data were processed

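Poly(A) RNA of MP41 cells was sequenced by the authors, 1 library per condition. Per the labels, reads were processed with FastQC, STAR 2.4.0a and featureCounts of Subread 1.5.0-p3 on hg38. The annotation, size factor method and low-count filter are not given in the sources used here. The authors deposited 1 normalized log2 value per gene and library, with 2 decimals, of the form log2(reads / size factor + 1). All low values (up to 5 on the linear scale) were whole multiples of a library-specific step of 0.853 to 1.15, from which reads were recovered.

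From these values the late minus early difference (24 and 48 h minus 6 and 12 h) was computed with Python 3.11.15, pandas 2.3.3, numpy 2.4.6 and scipy 1.17.1, without further normalization. Depth was 20270000 to 27360000 reads, and errors are Poisson errors of the recovered reads, covering counting error only. No test was made, since each condition had 1 library. On simulated reads for this comparison, calls recovered 197 of 200 genes planted with a 2-fold change and fell on 171 of 14639 others, 0 of which lay above the lowest 25% of mean value. The simulated reads had Poisson error alone, without variation between cultures or libraries. They therefore give no rate of false calls from such variation, and changes smaller than 2-fold were not planted.

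Of 14839 symbols, 13533 matched 1 gene of GENCODE 29. Genes were named as the 12 largest differences each way (above the lowest 25% of mean value, windows not overlapping, 95% counting interval off 0), up to 4 members of each of 32 lists, the 8 lowest with an 8mer, known targets, genes opposite between arms, and members whose role the text needed. The members and lists were chosen with earlier results of these data known. Alternatives covered threshold, filter, scaling, pseudocount, site definition and leaving out each library.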

Additional observations from a re-analysis of the deposited data

Results flagged for a closer look

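The following results had late and early values that did not overlap in either arm and that moved in opposite directions in the 2 arms. They were drawn from the 128 genes named by rule and from the windows of the study, not from all genes. Each arm has 1 library per hour, so the difference between the arms was not tested. Among all genes, 1.57% and 1.63% showed such a pattern in either orientation. Values are the late minus early difference with miR-16 less that with miR-CTR, on the log2 scale.

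The largest among these named genes was MMP11 at 1.76, with 1.48 in the miR-16 arm and -0.29 in the miR-CTR arm. SFRP1 (1.33), DUSP6 (1.2) and COL4A1 (1.14) were likewise higher late with miR-16 and lower late with miR-CTR. PDGFRB, a receptor of mesenchymal cells, had 1.43 but was weakly expressed, with 4.65 to 5.6 in the miR-16 libraries and 3.52 to 4.63 in the miR-CTR ones, and its miR-16 difference of 0.51 had a counting error of 0.252. TM7SF2, a sterol reductase, had 0.56, of which 0.51 arose in the miR-16 arm.

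A pair of known miR-16 targets went the other way. ARL2 had -0.94, from -0.43 with miR-16 and 0.51 with miR-CTR. MAP2K1, the kinase upstream of ERK, had -0.37, from -0.24 and 0.13. Without the 6 h library the miR-16 difference of ARL2 was -0.16, and without the 12 h library it was -0.71.

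For the windows of candidate sponges of the study, the median level over the genes was taken in each library. Its late minus early difference with miR-16 less that with miR-CTR was 0.53, and 0.39 in the stricter window. The median over genes of each gene's own gap was 0.52 and 0.43. These windows were drawn by the study from the same libraries, by the difference between the arms.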

How the results depend on the processing

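The alternatives kept the direction of most results, and the number of called genes depended on the hours. Genes higher and lower late numbered 809 and 832 once the lowest 25% of mean value was left out, 2778 and 2498 for 48 h minus 6 h, 938 and 568 for 24 h minus 12 h, and 896 and 537 after the miR-CTR difference was subtracted. Leaving out 1 library gave 1134 to 2475 higher and 646 to 2065 lower genes, with the fewest without the 48 h library and the most without the 24 h library. The threshold, the scalings, the pseudocount and the 0 h reference kept both counts within 1.5 times, and quantile normalization gave 1488 higher and 1463 lower. The 8mer median was -0.19 against 0 h. The 7mer-m8 median was -0.065 against 0 h and -0.05 with the shortest 3′UTR. The median of genes without a match was -0.02 without the lowest 25%, -0.015 after centring on the median gene and 0.0136 after scaling to the library total. Leaving out 1 library gave 8mer medians of -0.115 to -0.0675, 7mer-m8 medians of -0.045 to -0.01 and medians without a match of -0.005 to 0.01. Subtracting the miR-CTR difference turned the sign of 17 named genes, to -0.02 for ACSS2, -0.3 for BEST1, -0.07 for BNIP3L, 0.305 for CDH2, 0.32 for CYP1A1, 1.105 for CYR61, -0.09 for DCT, 0.06 for FOSL1, 0.105 for HK2, 0.295 for HSPB7, 0.22 for JUN, 0.03 for MRTO4, -0.04 for PHKB, -0.135 for PLCB4, 0.035 for PPAN, -0.09 for RBMS3 and 0.345 for RGS2. Against 0 h, HIST1H2AC was at -0.47. Of 115 named genes past 0.5, 31 were within it without the 48 h library, 23 without the 6 h, 3 without the 12 h and 0 without the 24 h library. No paired analysis was possible because each condition had 1 library and no replicate numbers to block on. The subtraction of the miR-CTR difference sets the arms side by side at the same hours.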

Other observations

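The miR-16 arm holds 1 library per hour, so an effect of the 48 h library and a late response cannot be told apart. Single genes in the lowest 25% of mean value have a median counting error of 0.222 (log2), against 0.0288 in the highest 25%, so small differences of weak genes were not detectable at this depth. The matching of the numbered time points to hours rests on their order.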
